A study of Homo sapiens with 2 samples.

Results

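Promoter-flanking regions with more FLAG-SMARCA4 signal in parental TOV21G cells than in EZH2 inhibitor resistant (EIR) cells are described here. The members were chosen from the list of regions higher in parental cells, by the position of each region on hg19: on chromosomes 1 to 22 and X except 10, with the nearest edge more than 1 kb and at most 5 kb from the nearest transcription start site (TSS) of any annotated transcript. There were 1589 members among 9596 parental-higher regions on those chromosomes (16.6%), among 10792 parental-higher regions on all chromosomes, and among 12896 regions of both lists. The other parental-higher regions on the same chromosomes lay within 1 kb of a TSS (4851) or beyond 5 kb (3156), and 371 regions higher in EIR cells lay 1 to 5 kb from a TSS. The left-out chromosome 10 held 237 more parental-higher regions at this distance. The number depends on the call: 567 members had a HOMER p-value of at most 1e-06, and 300 stayed past a Poisson p of 1e-04 with the EIR library scaled 1.5 times higher.

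SMARCA4 (BRG1) chromatin immunoprecipitation sequencing was carried out on 1 library of parental cells and 1 library of EIR clone 3. TOV21G is an ovarian clear cell carcinoma line with mutated ARID1A, and the EIR clone was a single clone picked after selection in the EZH2 inhibitor GSK126 at 5, 10, 15 and then 20 µM. In both lines a FLAG tag had been added to endogenous SMARCA4 by CRISPR, and chromatin was captured with an anti-FLAG antibody, so each library stands for 1 tagged line. With 1 library per condition the difference between parental and EIR cells has no replicate check and no p-value is given for it. The deposited lists hold only regions called as different, so sites bound equally in both lines were not analysed here, and the identity of the cells cannot be checked from them.

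SMARCA4 is an ATPase of the SWI/SNF complexes, which slide or evict nucleosomes, and ARID1A is a DNA-binding subunit of the same complexes. SWI/SNF occupies active promoters and enhancers, and in many epithelial cells its enhancer sites carry AP-1 motifs. Sequence just outside a promoter can hold the edge of a CpG island, a proximal enhancer, an alternative TSS that is not annotated, or the start of the first intron.

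Depth was estimated from the deposited tag values: 25.6 M tags in the parental and 35.0 M tags in the EIR library. Each EIR tag was worth 0.733 on the parental scale, a value fitted to the scaled tags, and the EIR depth follows from it. A tag is 1 aligned read, and EIR tags are given below scaled to the parental depth unless called unscaled. The fold is parental over scaled EIR tags, with a 95% exact interval from both tag counts, and such intervals cover counting error only. Shares of regions are given with 95% Wilson intervals, which treat regions as independent although they come from the same libraries.

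Reference sequence is printed for 8 members, 100 bases each on GRCh37, to show 2 sequence features, both defined below. A CpG-dense centre was found in 106 of the 1589 members and an AP-1 match in 304, so most members had neither. The 4 CpG-dense stretches were taken at the centre of 4 members, with every CpG in capitals. They come from an intron of KDM2B, a coding exon of POU3F3, a coding exon of ZFPM1 upstream of ZFPM1-AS1, and intergenic sequence downstream of ID2.
KDM2B, chr12:121904629-121904728, plus strand: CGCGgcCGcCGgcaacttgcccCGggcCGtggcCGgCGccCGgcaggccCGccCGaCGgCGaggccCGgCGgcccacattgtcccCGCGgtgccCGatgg
POU3F3, chr2:105472371-105472470, plus strand: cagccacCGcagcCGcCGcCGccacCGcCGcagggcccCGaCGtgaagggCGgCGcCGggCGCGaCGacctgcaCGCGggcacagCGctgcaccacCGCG
ZFPM1-AS1, chr16:88600247-88600346, plus strand: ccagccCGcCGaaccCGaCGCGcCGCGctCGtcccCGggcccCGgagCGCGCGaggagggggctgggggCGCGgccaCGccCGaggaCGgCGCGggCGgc
ID2, chr2:8825810-8825909, plus strand: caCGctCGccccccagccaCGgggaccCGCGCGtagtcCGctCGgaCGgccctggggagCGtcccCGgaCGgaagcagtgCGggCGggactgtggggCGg
These 4 stretches held 18, 19, 21 and 15 CpGs and had a GC content of 84%, 82%, 87% and 79%.

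The other 4 stretches surround a match to TGANTCA, the pattern used here for AP-1, printed in capitals. All 4 lie in introns of the named gene. N is any base, so a match need not be TGACTCA or TGAGTCA, and the FOXK1 match is TGAATCA.
TGFBR2, chr3:30676423-30676522, plus strand: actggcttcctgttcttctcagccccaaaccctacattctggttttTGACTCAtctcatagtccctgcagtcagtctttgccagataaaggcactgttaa
SMAD3, chr15:67413493-67413592, plus strand: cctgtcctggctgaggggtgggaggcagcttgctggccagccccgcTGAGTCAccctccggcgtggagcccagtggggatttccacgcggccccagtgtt
FOXK1, chr7:4786363-4786462, plus strand: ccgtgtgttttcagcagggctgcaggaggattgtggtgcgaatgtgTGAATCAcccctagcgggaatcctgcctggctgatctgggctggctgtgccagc
TNC, chr9:117877035-117877134, plus strand: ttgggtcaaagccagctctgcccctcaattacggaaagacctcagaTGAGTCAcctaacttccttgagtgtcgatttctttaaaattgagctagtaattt
The matches at TGFBR2, SMAD3, FOXK1 and TNC lay 247, 57, 190 and 45 bp from the centre of their region, and the GC content of the stretches was 46%, 70%, 60% and 42%.

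Most members were short and weak. Parental tags ran from 15 to 161 with a median of 22, scaled EIR tags from 0.7 to 68.9 with a median of 7.3, and 69.7% of members were exactly 500 bp long, the smallest size in the list. These values chose the members and are described without a test. The median fold was 3.07, with a range of 1.72 to 25.92. Summed over all members, parental cells had 44.6 tags per kb and EIR cells 15.8 scaled tags per kb, a summed fold of 2.83. The same sums gave 67.9 and 27.5 tags per kb (fold 2.47) for regions within 1 kb of a TSS and 43.3 and 15.0 (fold 2.89) for regions beyond 5 kb. In these sums the flanking members lay next to the distal regions rather than the promoters. The fold depended on the number of tags, however, as given below.

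A fold of at least 4 was reached by 230 members (14.5%, interval 12.8 to 16.3), beside 11.9% of the whole parental-higher list, 8.60% of the regions within 1 kb of a TSS and 16.2% of those beyond 5 kb. Among the 567 members with a HOMER p-value of at most 1e-06 it was reached by 39.0%. The fold depended on depth: its median was 3.51 at 15 to 19 tags (566 members), 2.94 at 20 to 29 (624), 2.52 at 30 to 59 (336) and 2.27 at 60 or more (63). Regions within 1 kb of a TSS had medians of 3.41, 2.86, 2.37 and 2.36 in the same classes. At like tag counts their folds were thus close to those of the members. The smallest fold in these classes was 2.88 at 15 to 19 tags and 2.3 at 20 to 29, so weak regions entered the list only with a larger fold. EIR signal was low but present: 0 members had no EIR tag, and 18 had at most 3 unscaled EIR tags. All 18 of these had no region of either list at their promoter, beside 75.1% of all members.

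**Figure D1:**
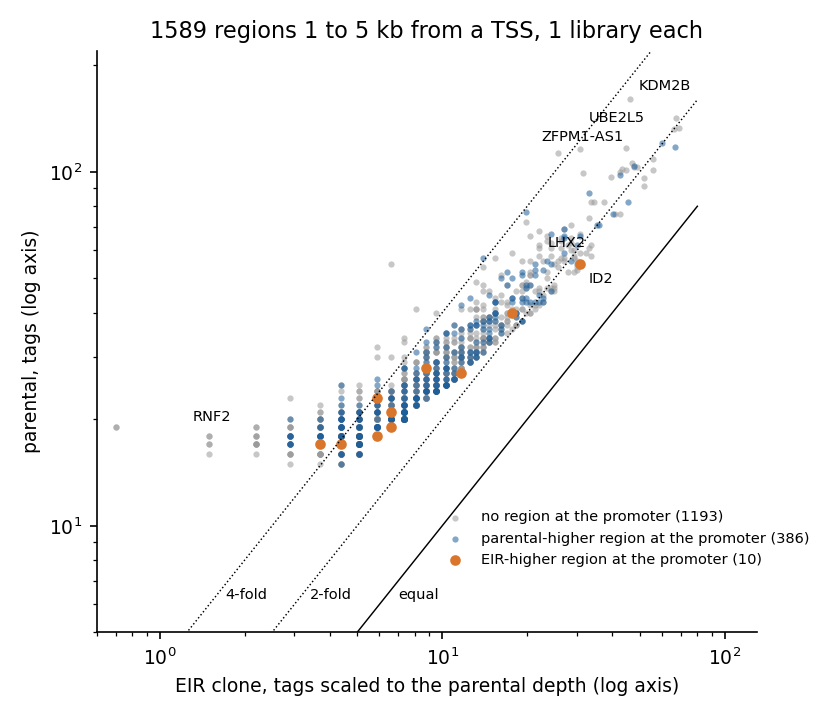
Parental tags against EIR tags scaled to the parental depth for each of the 1589 members (both axes log), 1 library per condition; lines mark equal signal and folds of 2 and 4, and colours mark the promoter status of the nearest TSS. Members stretch from 15 to 161 parental tags, with RNF2 among the lowest EIR tags and KDM2B at the most parental tags.

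The member with the most signal lay in an intron of KDM2B, a CpG-binding protein that recruits a variant Polycomb complex, 2780 bp downstream of an internal TSS (chr12:121903780-121905576). It had 161 parental and 46.2 scaled EIR tags, a fold of 3.49 (2.59 to 4.74). Next came the members near UBE2L5 (142 and 67.4 tags, fold 2.11, 1.61 to 2.77) and near the lncRNAs ENSG00000259058 (133 and 68.9, fold 1.93) and ENSG00000227619 (132 and 66.0, fold 2.0). The promoters of these 4 TSSs had no region of either list.

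The largest folds rested on very few EIR tags. Near the lncRNA ENSG00000289433 in an intron of SOBP, 19 parental tags stood against 1 unscaled EIR tag, a fold of 25.92 with an interval of 4.12 to 1080. RNF2, the E3 ligase of Polycomb repressive complex 1, had a member 1824 bp upstream of a TSS with 18 tags against 2 unscaled EIR tags. Its fold was 12.28 (2.94 to 109), and the intronic member of KLHL13 had the same counts. The size of these folds is poorly determined at this depth.

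Among the 63 members with 60 tags or more, the largest folds were at ZFPM1-AS1 (113 and 25.7 tags, fold 4.40, 2.99 to 6.63), the miRNA gene AC100791.2 (77 and 19.8, fold 3.89, 2.48 to 6.28), POU3F3 (116 and 30.8, fold 3.77, 2.63 to 5.50) and MRTFA (72 and 19.8, fold 3.64, 2.31 to 5.89). POU3F3 is a neural transcription factor of the POU family, and MRTFA is an actin-controlled coactivator of SRF. The first 3 of these were GC-rich, at 77.8%, 81.2% and 78.8%, while the MRTFA intron member had 47.8%. LHX2, a LIM homeobox gene, was noticed after its values were seen: its member 1143 bp upstream had 55 parental tags and 6.6 scaled EIR tags, a fold of 8.34, and a GC content of 82.8%.

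Members were spread over both sides of the TSS. Downstream lay 837 (52.7%, interval 50.2 to 55.1) and upstream 752, beside 52.0% downstream for all 1022952 windows of 500 bp on a fixed grid whose nearest edge lay 1 to 5 kb from a TSS. These windows are the space that members could occupy and serve below as background. The median fold was 3.07 on both sides, with a median of 21 parental tags downstream and 22 upstream. An intron of a protein-coding gene held 56.1% of members, intergenic sequence 22.7%, introns of noncoding genes 12.5%, and coding exons 3.08%. Shares of these kinds were not counted for the windows.

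The nearest TSS belonged to a protein-coding gene for 927 members, a lncRNA for 390, a pseudogene for 134, a miRNA for 37 and another gene type for 101. Of the 927, 192 (20.7%) were nearest to the canonical TSS of their gene, and the others were nearest to alternative or internal TSSs. That share was not counted among the windows. Coding genes with a member numbered 778 of 19348, or 4.02%. A parental-higher region within 1 kb of any of their TSSs was found for 22.8% of coding genes and for 442 of the 778 (56.8%).

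At the limits of the rule, the members nearest to a TSS were in FGD3 (18 and 3.7 tags, fold 4.91) and MIR22HG (26 and 11, fold 2.36), both at 1001 bp, and the farthest were near RNU6-20P (20 and 7.3, fold 2.73) at 4997 bp and NHSL1 (18 and 5.9, fold 3.07) at 4998 bp. Just outside lay regions near IL17RC (105 and 44.7 tags, fold 2.35) at 998 bp, RNU6-450P (53 and 29.3, fold 1.81) at 1000 bp, and an intron of SMARCA4 itself (20 and 5.1, fold 3.90) at 5007 bp. In these examples the regions within 1 kb of the TSS had more tags than the members just beyond 1 kb.

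Most members stood without a called change at the promoter itself. The nearest TSS had a parental-higher region within 1 kb for 386 members (24.3%, interval 22.2 to 26.5), an EIR-higher region for 10 (0.629%), both for 0, and neither for 1193 (75.1%). Among the windows, 4.88% had a TSS with a parental-higher region. The share was 23.5% upstream and 25% downstream. It was 44.3% for members at canonical coding TSSs and 26.4% at other coding TSSs, 19.7% at lncRNA TSSs, 16.2% at the annotated starts of miRNA genes and 8.96% at pseudogene TSSs. Of the 371 EIR-higher flanking regions, 8.89% (6.40 to 12.2) had a parental-higher promoter and 4.04% (2.47 to 6.56) an EIR-higher promoter, beside 0.3999% of windows with an EIR-higher one. Both sets of flanking regions thus stood beside a promoter changed in the same direction more often than the windows did, and this was not particular to the members. The EIR-higher flanking regions also stood beside a promoter changed in the opposite direction more often, at 8.89% beside 4.88% of windows. The share of members with a parental-higher promoter was 43.5% when any TSS of the same gene counted, and 8% among the 300 members left with the EIR library scaled 1.5 times higher. That scaling also removed promoter regions from the list. The share of windows was not recounted for either setting, so neither value can be set beside 4.88%.

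Density gives the same picture per unit of space. Members occurred at 15.5 per 10000 windows (95% Poisson interval 14.8 to 16.3), parental-higher regions within 1 kb of a TSS at 98.1 and beyond 5 kb at 8.11. Around TSSs with a parental-higher region the density of members was 77.4 (69.8 to 85.5), and around the other TSSs 12.4 (11.7 to 13.1). EIR-higher regions at the same distance had densities of 6.61 (4.55 to 9.29) and 3.47 (3.11 to 3.86) around those TSSs. At coding TSSs alone the member density was 70.2 with a promoter region and 13.5 without. Both sets of regions come from the same pair of libraries. Between chromosomes the density ran from 8.39 on X to 21.5 on chromosome 8.

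The density around changed promoters fell with distance. Where the TSS had a parental-higher region it was 109 per 10000 windows at 1 to 2 kb, 80.2 at 2 to 3 kb, 63.5 at 3 to 4 kb and 46.0 at 4 to 5 kb. Around the other TSSs it was 14.8, 12.6, 9.50 and 11.8. In these 4 distance classes lay 591, 423, 288 and 287 members, with median folds of 3.04, 3.07, 3.03 and 3.07. The fold is a value that placed regions on the list, and median tags were 21 to 22 in all 4 classes, so nothing is read from these medians.

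**Figure D2:**
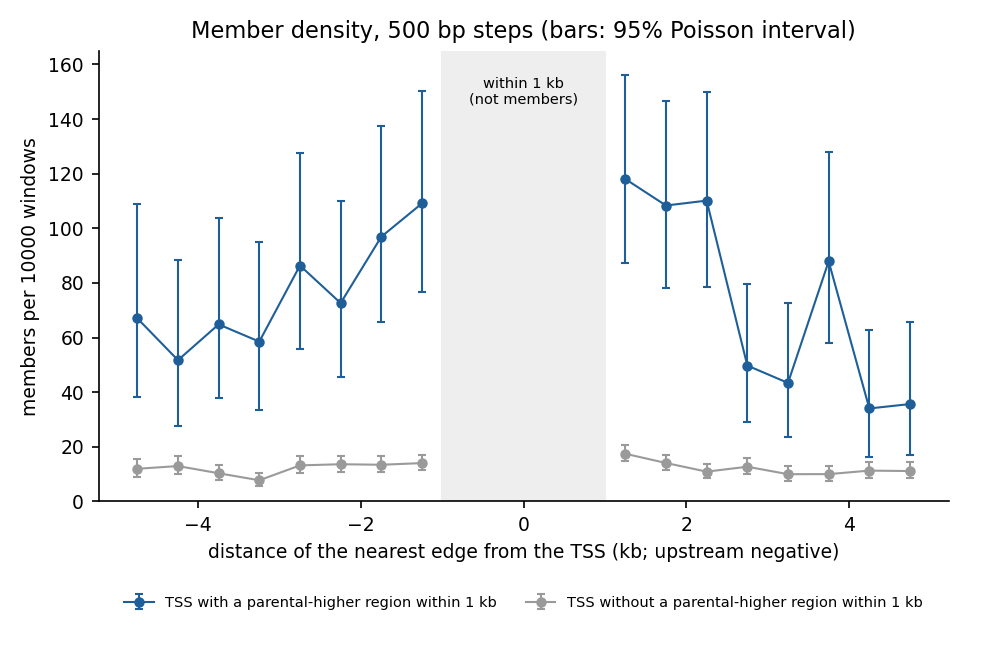
Members per 10000 windows in steps of 500 bp from the TSS (x axis, kb, upstream negative) for TSSs with (blue) and without (grey) a parental-higher region within 1 kb; bars are 95% Poisson intervals. The blue points fall from 109 and 118 next to the promoter to 67.0 and 35.6 at the outer edges, and the grey points stay between 7.73 and 17.4.

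The 386 members with a parental-higher region at the promoter were paired with 352 promoter regions, at a median gap of 2014.5 bp. The flanking region was the weaker of the pair: the median was 23 parental tags against 49.5 at the promoter, and 40.9 against 64.0 tags per kb, with more tags per kb in the member in 80 pairs. Its fold was higher in 257 pairs (66.6%), with medians of 2.88 and 2.585. In all 386 pairs the exact intervals of both folds overlapped, so the folds of no single pair stood apart by this measure. Among the 85 pairs with at least 30 tags in both regions the medians were 2.43 and 2.40, and the member was higher in 45. In these well counted pairs neither side was higher as a rule.

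**Figure D3:**
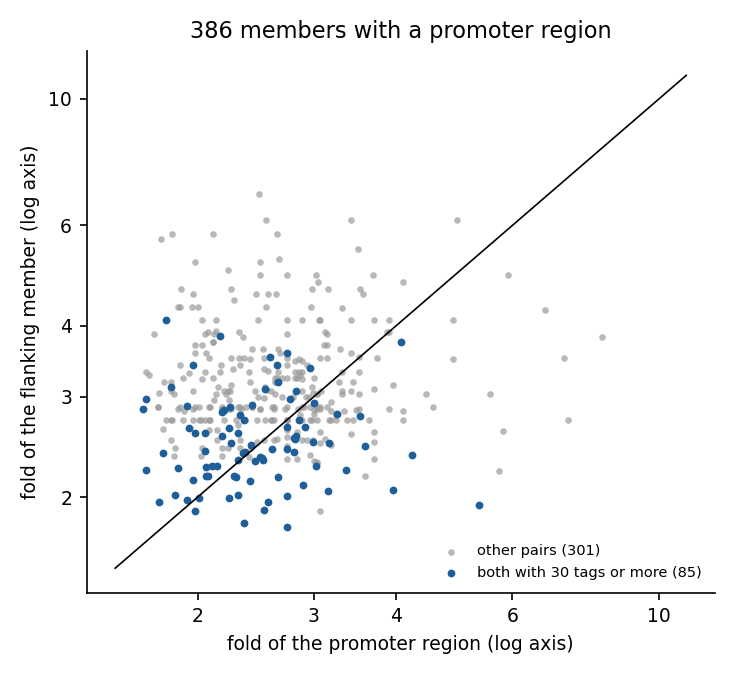
Fold of each flanking member against the fold of the parental-higher region at the promoter of its nearest TSS (both axes log) for the 386 pairs; the line marks equal folds and blue points are the 85 pairs with at least 30 tags in both. Grey points lie mostly above the line and blue points on both sides of it, 45 of the 85 above.

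The strongest members beside a parental-higher promoter were near the lncRNAs ENSG00000231062 (121 and 60.1 tags, fold 2.01) and ENSG00000235052 (118 and 66.7 tags, fold 1.77), in an intron of GNAI1 (104 and 47.6, fold 2.18) and near the pseudogene RPL13AP27 in an intron of ATG7 (98 and 42.5, fold 2.31). ENSG00000235052 lies close to ID3, a helix-loop-helix inhibitor induced by BMP signals, whose nearest TSS was 3644 bp from the member. At all 4 the promoter region had fewer tags than the flanking member, with 32, 46, 41 and 34 parental tags. Those promoter regions were also shorter than the members, which were picked for their tags, so the counts do not compare signal per kb.

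The opposite case was rare. At ID2, another helix-loop-helix inhibitor, the member 2699 bp downstream of a TSS (chr2:8825609-8826109) had 55 parental and 30.8 scaled EIR tags (fold 1.79, 1.17 to 2.74), while the EIR-higher region covering that TSS had 7 and 20.5. SIRPB1 had a member with 40 and 17.6 tags (fold 2.27) and an EIR-higher promoter region with 4 and 18.3, and C1orf232 a member with 28 and 8.8 tags (fold 3.18) and a promoter region with 4 and 16.1. At the lncRNA ENSG00000258346, 3 members shared 1 EIR-higher promoter region with 12 and 32.3 tags. These 4 genes account for 6 of the 10 such members, and an EIR-higher region lay within 5 kb of the same TSS for 31 members (1.95%).

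Members often had company. The next parental-higher region was a median of 7693 bp away, within 5 kb for 42.0% of members and within 1 kb for 8.81%, and 106 of 1475 TSSs had at least 2 members. The most members at TSSs of 1 gene were 6 at PVT1, a lncRNA next to MYC, and 6 at CSGALNACT1, an enzyme of chondroitin sulfate synthesis, followed by 5 each at LINC01588 and TMCC1, and also 5 each at SMAD2 and PDE4D. At PVT1 all 6 members had a parental-higher region at the nearest TSS, with 20 to 37 parental tags and folds of 2.66 to 3.33. At CSGALNACT1 only 1 of 6 had, beside a promoter region of 147 tags, and the members had 15 to 27 tags and folds of 3.07 to 5.12. LINC01588 members had 19 to 71 tags and folds of 1.98 to 2.88, and TMCC1 members 17 to 82 tags and folds of 1.80 to 6.14. Several members of 1 gene lie on the same stretch of a chromosome and are not independent. The PVT1 and CSGALNACT1 members were nearest to several different TSSs of their gene. No window count was set beside the counts per gene, so they do not show a higher density there.

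In GC content most members were nearer to the windows and distal regions than to regions within 1 kb of a TSS. The median GC content of the central 500 bp was 44.6%, beside 42.0% in the windows, 43.6% in distal regions, 73.0% in regions within 1 kb of a TSS and 54.4% in EIR-higher flanking regions. A CpG-dense centre, with a GC content over 55% and a ratio of observed to chance-level CpG over 0.65, was found in 106 members (6.67%, interval 5.55 to 8.01), in 0.418% of windows and in 72.4% of promoter regions. The share rose with signal, from 1.41% at 15 to 19 tags to 3.37%, 15.5% and, at 60 or more tags, 39.7% (25 of 63, interval 28.5 to 52.0). Regions beyond 5 kb went the same way, from 0.677% to 27.8%, so the rise was not particular to the flanks.

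Of the 25 CpG-dense members with 60 tags or more, 21 (84.0%, interval 65.3 to 93.6) had no region of either list at the promoter of the nearest TSS. Among all 63 members with 60 tags or more the share was 74.6% (62.7 to 83.7), with overlapping intervals. Besides KDM2B, POU3F3 and ZFPM1-AS1 the 21 include a member 3212 bp upstream of HIC1, a zinc finger repressor, with 117 and 44.7 tags (fold 2.62, 1.90 to 3.63). HES1, a repressor downstream of Notch, had a pair of them nearby: 97 and 39.6 tags (fold 2.45) near RN7SL215P, 4385 bp from a TSS of HES1, and 64 parental tags (fold 2.43) nearest to HES1. NFIA, a nuclear factor I gene, had 91 and 52.0 tags (fold 1.75, 1.27 to 2.42) at 2945 bp upstream. The median fold was 2.38 for these 25 and 2.25 for the other 38 strong members, with overlapping intervals of 2.06 to 2.52 and 2.11 to 2.43.

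The AP-1 motif TGANTCA, searched on both strands, was present in the central 500 bp of 304 members (19.1%, interval 17.3 to 21.1), beside 14.5% of windows, 7.19% of promoter regions, 21.3% of distal regions and 15.1% of EIR-higher flanking regions. Members beside a parental-higher promoter had a match in 12.7% (9.74 to 16.4) and the others in 21.2% (19 to 23.6). The matches did not gather at the centre: 17.8% of 348 lay within 50 bp of it, beside 20.4% of the matches in windows. Any base was allowed at N, and matches were not split by that base. Among members with 60 tags or more, 0 of the 25 CpG-dense ones had a match, which with a Wilson interval allows up to 13.3%, and 14 of the other 38 had (36.8%, 23.4 to 52.7). The median fold was 3.03 with and 3.07 without a match. With only 1 TSS per gene, the share of members with a match was 14.8%, and windows were not counted for that choice of TSSs.

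Other motifs were searched in the same way. The SP/KLF motif GGGGCGG was found in 7.49% of members, 2.58% of windows and 59% of promoter regions. The ETS motif CCGGAAG was found in 2.39% of members and 1.34% of windows, and the CTCF motif in 0.441% and 0.137%. The TEAD motif CATTCC was at 24.5% beside 24.2% of windows, the RUNX motif TGTGGTT at 8.56% beside 8.93%, the FOX motif TGTTTAC at 7.43% beside 7.20%, the GATA motif AGATAAG at 7.36% beside 6.79%, and CCAAT at 48.5% beside 51.5%. Both strands were searched for each, and a match is a description of the sequence only.

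**Figure D4:**
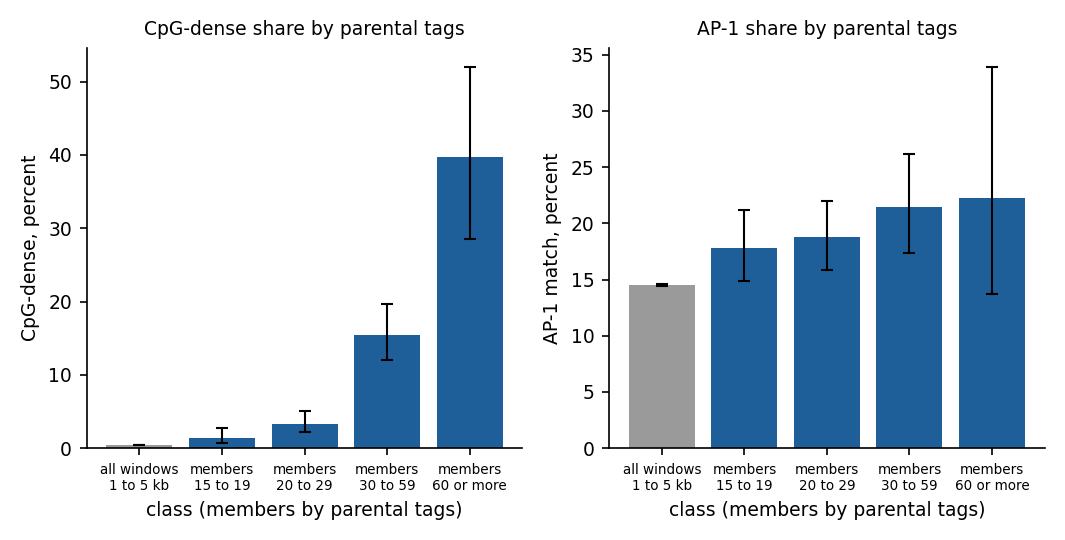
Share of regions with a CpG-dense centre (left) and with an AP-1 match (right) in all 1022952 windows (grey) and in members by parental tags (blue); bars are 95% Wilson intervals. The CpG-dense share climbs from 1.41% to 39.7% across the tag classes, while the AP-1 share moves from 17.8% to 22.2% with overlapping intervals.

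Members were also read by 11 gene lists, each given as genes with a member at their nearest TSS among the genes of the list, beside 4.02% of all coding genes, and as members per 10000 windows, beside 17.9 (16.7 to 19.1) at all coding TSSs. Coding genes with a parental-higher region at any TSS had a density of 35.1 (32.2 to 38.2), and those without 10.5 (9.47 to 11.6). No list was tested, and members of 1 gene or of neighbouring genes are not independent.

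The TGF-beta, BMP and SMAD list, the pathway that carries TGF-beta family signals from receptors to nuclear SMADs, had 18 members at 8 of 43 genes (18.6%), or 122 per 10000 windows (72.3 to 193). A parental-higher region at a promoter was present for 31 of the 43 genes. This was the only list whose whole interval also lay above that of the coding genes with such a region. That interval counts the 18 members as independent, which they are not. The lists were also chosen with earlier results of these data known, so nothing about the pathway is concluded from it. The receptor TGFBR2 had 2 members, the stronger of them in an intron (chr3:30675361-30677089) with 57 parental and 15.4 scaled EIR tags (fold 3.70, 2.21 to 6.43), and the other with 24 and 8.8 (fold 2.73). SMAD2, a receptor-regulated SMAD, had 5 members with 17 to 37 tags and folds of 2.83 to 4.91. SMAD3, its close relative, had 3, with 53 and 30.1 tags (fold 1.76, 1.15 to 2.72), 45 and 16.1 (fold 2.79, 1.64 to 4.88) and 23 and 8.8 (fold 2.61).

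The inhibitory SMADs were among them too: SMAD7 had 3 members with folds of 2.08 to 3.90 and SMAD6 2 with folds of 2.85 and 2.61. GDF15, a secreted ligand, had 1 (20 and 7.3 tags, fold 2.73), the corepressor TGIF1 had 1 (19 and 5.9, fold 3.24) and the target ID2 had the member described above. Of the 18, 11 lay downstream of the TSS, 4 had a parental-higher promoter and 3 an AP-1 match. SMAD2 and SMAD7 are both on chromosome 18, and SMAD3 and SMAD6 both on chromosome 15, so the 18 members come from few loci.

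Adhesion genes formed the list with the most members. Integrins, focal adhesion and actin cytoskeleton had 20 members at 13 of 70 genes (18.6%), or 57.1 per 10000 windows (34.9 to 88.3), with parental tags of 18 to 59 and a median fold of 3.07. BCAR1, a scaffold of focal adhesions, had 59 and 32.3 tags (fold 1.83, 1.22 to 2.77), the integrin subunit ITGB8 36 and 8.8 (fold 4.09, 2.08 to 8.64), the actin crosslinker ACTN4 36 and 11.7 (fold 3.07, 1.66 to 5.93) and the actin-associated protein PDLIM5 31 and 10.3 (fold 3.02, 1.56 to 6.15). NEDD9, another focal adhesion scaffold, had 3 members of 18 to 19 tags. Of the 20, 5 stood beside a parental-higher promoter, near the 24.3% of all members, and ITGB8 was among them with 75 and 41.8 tags at its TSS.

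The Hippo-YAP list, a pathway that restrains growth through the coactivators YAP1 and WWTR1, had 7 members at 5 of 25 genes (20.0%), or 82.9 per 10000 windows (33.4 to 171). VGLL4, a competitor of YAP1 for TEAD factors, had 38 and 13.9 tags (fold 2.73, 1.53 to 5.01) at its canonical TSS and 25 and 10.3 (fold 2.44) beside a promoter region with 147 and 67.4 tags. WWTR1 had 23 and 8.1 tags (fold 2.85) and 22 and 8.1 (fold 2.73), YAP1 had 19 and 5.1 (fold 3.70, 1.49 to 10.4), and the targets CCN1 and CCN2 had 22 and 7.3 (fold 3.00) and 20 and 7.3 (fold 2.73). Members were thus found at both coactivators and at both of these secreted targets.

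Receptor kinase and RAS-MAPK feedback genes had 11 members at 9 of 62 genes (14.5%), or 50.3 per 10000 windows (25.1 to 90.0). Feedback inhibitors were among these genes: SPRY1 had 43 and 16.1 tags (fold 2.67, 1.56 to 4.68) and 20 and 5.9 (fold 3.41), SPRY2 27 and 9.5 (fold 2.83), SPRY4 24 and 5.9 (fold 4.09), ERRFI1, an inhibitor of EGFR, 34 and 14.7 (fold 2.32, 1.30 to 4.25), and the phosphatase DUSP14 35 and 10.3 (fold 3.41, 1.79 to 6.86) and 22 and 8.1 (fold 2.73). The receptors MET and ERBB4 had 1 member each, with 20 and 17 parental tags and folds of 3.41 and 3.31. Among AP-1 and MAF factors, 3 of 18 genes had a member: JUNB (59 and 30.8 tags, fold 1.92, 1.27 to 2.92), FOSL2 (33 and 14.7, fold 2.25) and BACH1 (21 and 5.9, fold 3.58). That gave 90.4 per 10000 windows with a wide interval of 18.6 to 264.

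Müllerian and clear cell carcinoma markers had 5 members at 4 of 28 genes (14.3%), or 60.2 per 10000 windows (19.6 to 141). PAX8, the lineage factor of Müllerian epithelium, had 37 and 16.1 tags (fold 2.29, 1.32 to 4.08) 2551 bp upstream of its canonical TSS and 21 and 6.6 (fold 3.18) at an internal TSS. The keratin KRT18 had 25 and 10.3 tags (fold 2.44). The annexin ANXA4 had 18 tags against 3 unscaled EIR tags (fold 8.19, 2.39 to 43.4), and the small heat shock protein CRYAB 20 against 5 unscaled (fold 5.46, 1.99 to 18.6). Polycomb genes had 4 members at 4 of 32 genes (12.5%), with an interval of 9.98 to 93.8 per 10000 windows that holds the value of all coding genes. They include PHC2 (27 and 11 tags, fold 2.46), RNF2 and PHF19 (17 and 2.9, fold 5.80, 1.89 to 23.7), and 3 of the 4 had a parental-higher promoter region, with 122 tags at PHC2 and 85 at PHF19.

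For the remaining lists the interval also held the value of all coding genes. Extracellular matrix and protease genes had 6 members at 5 of 61 genes, or 21.4 per 10000 windows (7.84 to 46.5), with 46 and 19.1 tags (fold 2.41, 1.46 to 4.07) and 19 and 5.1 (fold 3.70) at TNC, the glycoprotein tenascin C, 37 and 18.3 (fold 2.02) at COL4A2 and 22 and 8.1 (fold 2.73) at ADAM9. BCL2 family and apoptosis genes had 3 members at 3 of 46 genes: BBC3, which encodes the proapoptotic protein PUMA, had 19 and 6.6 tags (fold 2.88, 1.24 to 7.23), the initiator caspase CASP8 had the same counts, and its inhibitor CFLAR 23 and 8.1 (fold 2.85). Of 63 KLF, SOX, FOX and GATA factors 2 had a member, FOXK1 (100 and 42.5 tags, fold 2.35, 1.69 to 3.31) and KLF5 (30 and 10.3, fold 2.92). Of 28 SWI/SNF subunits 1 had, BICRAL (31 and 8.1 tags, fold 3.84, 1.88 to 8.48), beside a promoter region with 103 and 47.6 tags.

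**Figure D5:**
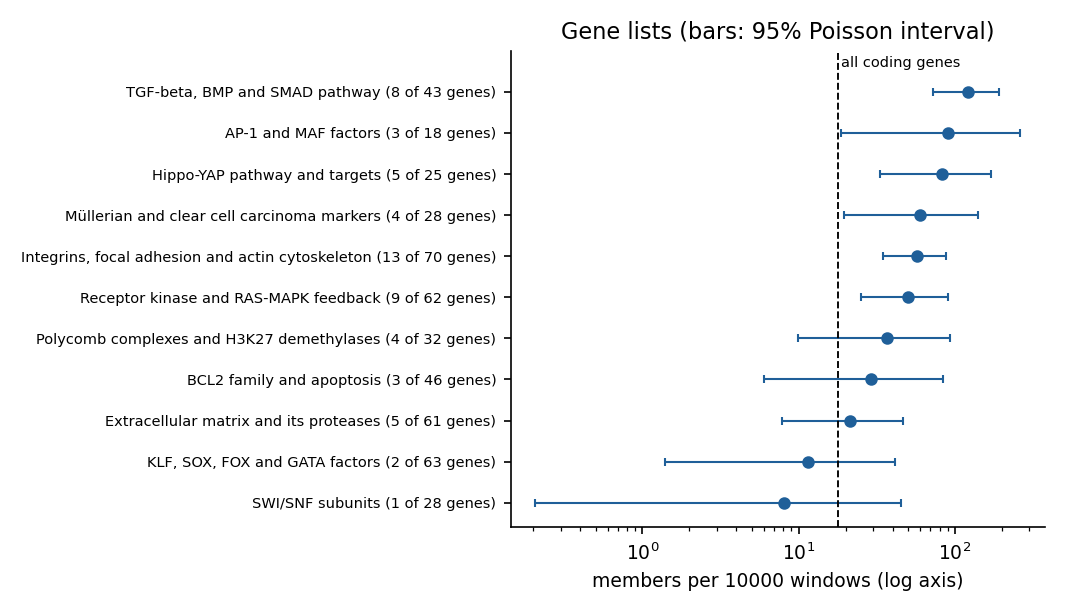
Members per 10000 windows (log axis) around the TSSs of each gene list, with 95% Poisson intervals and, in brackets, the genes with a member among the genes of the list; the dashed line marks all coding genes at 17.9. The TGF-beta, AP-1, Hippo-YAP, Müllerian, integrin and receptor kinase lists lie to the right of the line with their whole interval, and the other 5 intervals cross it. The intervals count members as independent and are not a test.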

How the data were processed

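FLAG-SMARCA4 ChIP-seq was deposited for 1 parental TOV21G library and 1 library of EIR clone 3. Per the submitters' processing notes and the study's methods, the authors aligned reads with Bowtie 0.12.9 to hg19 and called regions with HOMER in histone style, each library serving as control of the other, at a false discovery rate under 5%. The deposited parental tags are counts of reads per region, and the control tags and normalized tag signal were scaled by the authors to a common depth. The deposited fold (a ratio of both tag values) and HOMER p-value were used as given.

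Distances were measured on hg19 from the nearest region edge to TSSs of all transcripts of GENCODE 44 lifted to GRCh37. EIR tag counts were recovered from the steps of the scaled values (145 of 145 distinct values of at least 5 lay within 0.1 of a whole number of steps). Folds received exact Clopper-Pearson intervals, shares Wilson intervals, medians order-statistic intervals and densities Poisson intervals, at the 95% level. GC content and motifs were read from the central 500 bp of each region, and from every window of 500 bp at the same distance. Steps were tested on simulated data. Python 3.11.15, pandas 2.3.3, SciPy 1.17.1 and pysam 0.24.0 were used.

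The members and gene lists were chosen with earlier results of these data known. Named members were the 4 with the most tags, the 4 with the largest fold overall and among those with 60 tags or more, up to 4 per gene list, the genes with the most members, the regions at the distance limits, and the strongest by promoter status. A region was named after the gene of its nearest TSS. Other members of listed genes were named after their values were seen. A few members and neighbouring regions that this rule names are not reported here.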

Additional observations from a re-analysis of the deposited data

How the results depend on the processing

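No paired analysis was possible because each condition had 1 library. Of 60 alternative values for 7 results, 38 stayed within the interval of the reported value (within 1.5 times for the number of members) and 22 moved; the cause was not tested except where fewer regions enter. With HOMER p-values of at most 1e-06 there were 567 members, 16.4% with a parental-higher promoter, 39.0% with a fold of at least 4, a median fold of 3.52, a median GC content of 44% and an AP-1 match in 21.3%. With the EIR library scaled 1.5 times higher these were 300, 8%, 12.3%, 2.88 and 43.2%, the AP-1 share not moving. With 1 TSS per gene 56.0% lay downstream, the median fold was 2.98, the median GC content 47.4% and the AP-1 share 14.8%. The promoter share was 21.4% by distance from the centre, 30.5% with coding TSSs only, 21.2% at a fold of at least 2, 21.4% with regions merged within 1 kb, 20.0% within 500 bp and 43.5% with any TSS of the gene. Window shares were not recounted for these settings, and the stricter calls also removed promoter regions. Searching whole regions gave an AP-1 share of 23.2%. Depth limits single folds: at 15 to 19 tags the intervals are wide, and 1 library per condition gives no measure of spread between cultures.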

Other observations

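MicroRNA genes were the nearest TSS of 37 members, at 12.7 members per 10000 windows (8.95 to 17.5), beside 16.8 at lncRNA TSSs and 17.9 at coding TSSs. The strongest at a named microRNA were a pair upstream of MIR200B, noticed after their values were seen: 76 parental and 41.0 scaled EIR tags (fold 1.85, 1.29 to 2.66) at 2147 bp and 54 and 30.1 (fold 1.80, 1.18 to 2.77) at 1259 bp. MIR200B heads the cluster that also makes miR-200a and miR-429, microRNAs known for holding cells in an epithelial state by repressing ZEB factors. Their mature forms from RefSeq (GRCh38.p14) are shown because 2 of them share a seed (bases 2 to 8, in capitals).
hsa-miR-200b-3p: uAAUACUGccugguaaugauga
hsa-miR-200a-3p: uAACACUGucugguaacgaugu
hsa-miR-429: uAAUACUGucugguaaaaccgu
Other members lay near MIR181B2 (44 and 19.1 tags, fold 2.31, 1.39 to 3.91), MIR365A (31 and 11.7, fold 2.64, 1.40 to 5.18) and MIR135B (30 and 12.5, fold 2.41, 1.29 to 4.65). A parental-higher region lay within 1 kb of the annotated start for 6 of the 37 (16.2%). The annotated start of a microRNA gene was not checked as a place where transcription begins, so this share may not describe promoters.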
